A study of Mus musculus with 6 samples.

Results

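Ifitm1, Ifitm2, Ifitm3 and Ifitm6, members of the interferon-induced transmembrane gene family, were followed through single cells of mouse bone marrow and blood. They are 4 of the 23016 genes in the table of unique molecular identifier (UMI) counts. They were chosen by name and selected on their UMI levels across lineages, neutrophil stages, ages and libraries, as seen in earlier results of these data. Their levels and age differences are therefore a description, with no test. The table holds 7 Ifitm genes in all. Over the 28055 deposited cells Ifitm1 had 115168 UMIs, Ifitm2 had 218118, Ifitm3 had 258064 and Ifitm6 had 169154. The remaining relatives had far fewer, with 269 UMIs for Ifitm5, 889 for Ifitm7 and 1209 for Ifitm10. Ifitm10 was concentrated in NK cells, at 243 (young) and 195 CPM (aged) in blood, levels counted per 1000000 UMIs of the class, with a UMI in 69.4% and 67.7% of these cells.

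Ifitm proteins are short proteins anchored in the plasma membrane and in endosomes. Ifitm3, the best-known member, sits in late endosomes and hinders enveloped viruses from fusing with the endosomal membrane, and Ifitm1 and Ifitm2 restrict viruses in the same general way. Ifitm1 and Ifitm3 have also long been used as markers of early germ cells and some stem cells. Type I interferon raises Ifitm genes in many cells through transcription factors that bind an interferon-stimulated response element. For that reason the 4 genes are set here beside 45 classic interferon genes, among them Isg15 (a ubiquitin-like modifier), Ifit1 and Ifit3 (sensors of foreign RNA), Rsad2 (viperin) and Irf7 (a transcription factor that amplifies the response).

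The cells came from wild-type mice, young or aged, and were sequenced from the 3′ end of the transcript with the Chromium v3.1 droplet kit. There were 6 libraries, 1 per group: untreated marrow of young and of aged mice (called steady state here), marrow of both ages taken 24 h after a stroke made by closing the middle cerebral artery, and untreated blood of both ages. Flow cytometry had enriched the marrow samples in Gr1+ cells and in c-kit+ cells. Blood was sorted as CD11b+ Ly6G- and CD11b+ Ly6G+ cells, so the gates help to set which classes are present. The ages and the number of mice behind a library are not given in the sources used here. With 1 library per group no difference could be checked against other animals. Every interval below is a 95% interval for the counting of UMIs in these libraries alone.

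The 4 genes lie within 63.1 kb of mouse chromosome 7 (GRCm38, GENCODE vM21 annotation), all protein coding. Ifitm2 lies at chr7:140954837-140955987 on the minus strand with 2 exons and overlaps the gene model Gm45717. Ifitm1 lies at chr7:140967221-140969825 on the plus strand with 2 or 3 exons in its 3 transcripts. Ifitm3 lies at chr7:141009586-141010770 on the minus strand with 2 exons. Ifitm6 lies at chr7:141015699-141017924 on the minus strand with 2 or 3 exons in its 3 transcripts. Because the kit reads transcript ends, sequence shared there matters for the counts: of the 31-base words in the last 400 bases of the transcript, 13.5% in Ifitm1, 38.4% in Ifitm2 and 26.2% in Ifitm3 also occurred in another gene or gene model, and 0% in Ifitm6. Reads of such words can be assigned to a copy or dropped, so the absolute levels of the first 3 are uncertain. The 5 copies present in the table held between 0.0996% and 0.657% of the 4 genes' UMIs per library.

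The 4 promoter windows searched differ in the response element, and their sequences are shown for that reason. They were read from the RefSeq promoter table for GRCm38.p6, which had an entry for all 4 genes, and are given 5′ to 3′ on the gene's own strand. The motif GAAANNGAAA, the core of the interferon-stimulated response element, was searched on both strands from 250 bases before the RefSeq start to 50 after it, and is set in capitals. The first 4 stretches are 100 bases long and run from 130 to 31 bases before the start (148 to 49 for Ifitm1), and the last is the first 30 transcribed bases of Ifitm3.
Ifitm1, chr7:140967928-140968027, plus strand: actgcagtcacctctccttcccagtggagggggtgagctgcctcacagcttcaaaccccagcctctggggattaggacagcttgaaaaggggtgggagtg
Ifitm2, chr7:140955992-140956091, minus strand: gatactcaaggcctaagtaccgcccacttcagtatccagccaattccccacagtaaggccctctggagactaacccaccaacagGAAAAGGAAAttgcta
Ifitm3, chr7:141010775-141010874, minus strand: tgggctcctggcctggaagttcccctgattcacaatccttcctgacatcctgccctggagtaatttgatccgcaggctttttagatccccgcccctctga
Ifitm6, chr7:141016923-141017022, minus strand: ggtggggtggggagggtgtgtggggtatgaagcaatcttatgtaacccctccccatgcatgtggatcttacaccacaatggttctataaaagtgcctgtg
Ifitm3, chr7:141010715-141010744, minus strand: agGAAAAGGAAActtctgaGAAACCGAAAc
Ifitm2 held 1 match, 46 to 37 bases before its start. Ifitm3 held 2 matches, at bases 3 to 12 and 20 to 29 after its start. No match was found in the windows of Ifitm1 and Ifitm6, which says only that these letters are not there. For both genes the stretch shown lies inside the annotated gene, and its outermost annotated start lies outside the window. Other starts of these genes were not searched, so the missing match is not a trait of the whole gene. The motif occurred in 3.44% of all 32851 promoters of the table and in 57.1% of the 35 interferon-list genes that had one (20 genes). A match is a run of letters and not a measured binding site.

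UMIs were summed over all cells of a class in a library and expressed per 1000000 UMIs of that class (CPM). Classes were named from markers, each name meaning "like" that class, after clustering each of the 3 contexts without the Ifitm genes. Between 1982 and 7938 cells per library were kept, of 10208699 to 72743805 UMIs per library before filtering, and a median kept cell held 4164.5 to 11177.5 UMIs. Between 6.94% and 51.0% of a library's kept cells stayed unnamed, most of all after stroke in the young. No class of steady-state marrow met the naming rule for mature neutrophils. The libraries did not stand on equal footing. The ribosomal gene copy Gm10736 was at 31.6 and 55.1 CPM in the young and aged steady-state marrow libraries against 589 to 1962 CPM in the other 4, so a difference between stroke and steady state in how reads were counted cannot be told apart from stroke. Cells after stroke were also deeper: the median granulocyte progenitor held 58375 (young) and 52684 UMIs (aged) after stroke against 12165 and 16259 at steady state. Doublet removal took 0.309% and 0.565% of the filtered cells after stroke and 2.316% to 3.348% elsewhere, so doublets remain there. Pairs of libraries shared 5 to 21 cell barcodes, at most 0.735% of the smaller library.

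Each member had its own territory. Ifitm1 was high at both ends of the neutrophil line and in basophils, Ifitm2 was spread over all myeloid classes, Ifitm3 peaked in monocytes, and Ifitm6 in marrow neutrophils after the progenitor stage. The lymphoid classes were at the low end for all 4 genes.

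Ifitm1 was at 1310 to 4046 CPM in the basophil and mast cells (median 1938 over 4 libraries), 762 to 2538 CPM in mature neutrophils (median 1892) and 581 to 2670 CPM in stem and progenitor cells (median 1426). These 3 ranges overlap, so their order is not settled. Granulocyte progenitors spanned 67.8 to 943 CPM and conventional dendritic cells 13.3 to 2466 CPM, both wide because of the stroke libraries. Monocytes, plasmacytoid dendritic cells and B, NK and T cells had medians of 24.9 to 44.8 CPM, and their ranges overlap. At such levels free RNA in the droplets counts: after each cell was thinned to 1000 UMIs, a UMI of Ifitm1 was seen in 1.08% (young) and 1.86% (aged) of classical monocytes at steady state. In plasmacytoid dendritic cells of the same libraries the share was 2.42% and 1.77%, and without thinning the monocyte shares were 6.10% and 10.7% against 11.4% and 16.6%. The median depths were 5664 and 6467.5 UMIs for the monocytes and 5418 and 7022 for the dendritic cells. Ifitm1 in steady-state monocytes is therefore read as background.

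Ifitm2 was highest in mature neutrophils, at 2030 to 2969 CPM (median 2564 over 4 libraries), above every other class in every library. Non-classical monocytes followed at 1164 and 1178 CPM, and classical monocytes at 678 to 1692 CPM (median 1054 over 6 libraries), ranges that overlap. Conventional dendritic cells were at 282 to 1553 CPM, and stem and progenitor cells at 604 to 1046 CPM. B, NK and T cells lay between 13.3 and 157 CPM.

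Ifitm3 was highest in monocytes. Classical monocytes had 2890 (young) and 2572 CPM (aged) in steady-state marrow, 1570 and 2084 CPM after stroke, and 5904 and 5538 CPM in blood. By class, blood classical monocytes were thus above those of marrow, with no overlap. The marrow class was mixed: at steady state Ifitm3 was at 4786 (young) and 3973 CPM (aged) in non-dividing cluster 10. In dividing cluster 13 it was at 1956 and 1738 CPM, and both stroke clusters of the class were dividing. The larger blood cluster (5), also non-dividing, was at 5894 and 5400 CPM. Non-classical monocytes, the patrolling subset of blood, were at 3901 and 3299 CPM. Conventional dendritic cells followed at 532 to 3542 CPM. Megakaryocytes were at 832 to 1161 CPM, mature neutrophils at 738 to 1239 CPM and stem and progenitor cells at 576 to 1151 CPM, 3 ranges that do not separate. Basophils, at 143 to 210 CPM, were low in Ifitm3 although they were high in Ifitm1.

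Ifitm6 was highest in immature neutrophils, at 3407 (young) and 4065 CPM (aged) at steady state and 4825 and 6186 CPM after stroke. Its mature-neutrophil level was 3148 and 5383 CPM in marrow after stroke against 246 and 173 CPM in untreated blood. With no mature class named in steady-state marrow, compartment and stroke cannot be told apart in this difference. Classical monocytes were at 209 to 1091 CPM and non-classical monocytes at 704 and 657 CPM. In granulocyte progenitors at steady state 3.59% (young) and 4.53% (aged) of thinned cells had a UMI of Ifitm6, against 8.47% and 9.76% of the T-like cells of the same libraries, so the gene is read as background there. Without thinning the shares were 34.3% and 48.4% at median depths of 12165 and 16259 UMIs, against 25.4% and 17.1% at 4196 and 5454. The T-like clusters of steady-state marrow had no Cd3e UMI, and so are a weak reference.

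**Figure D1:**
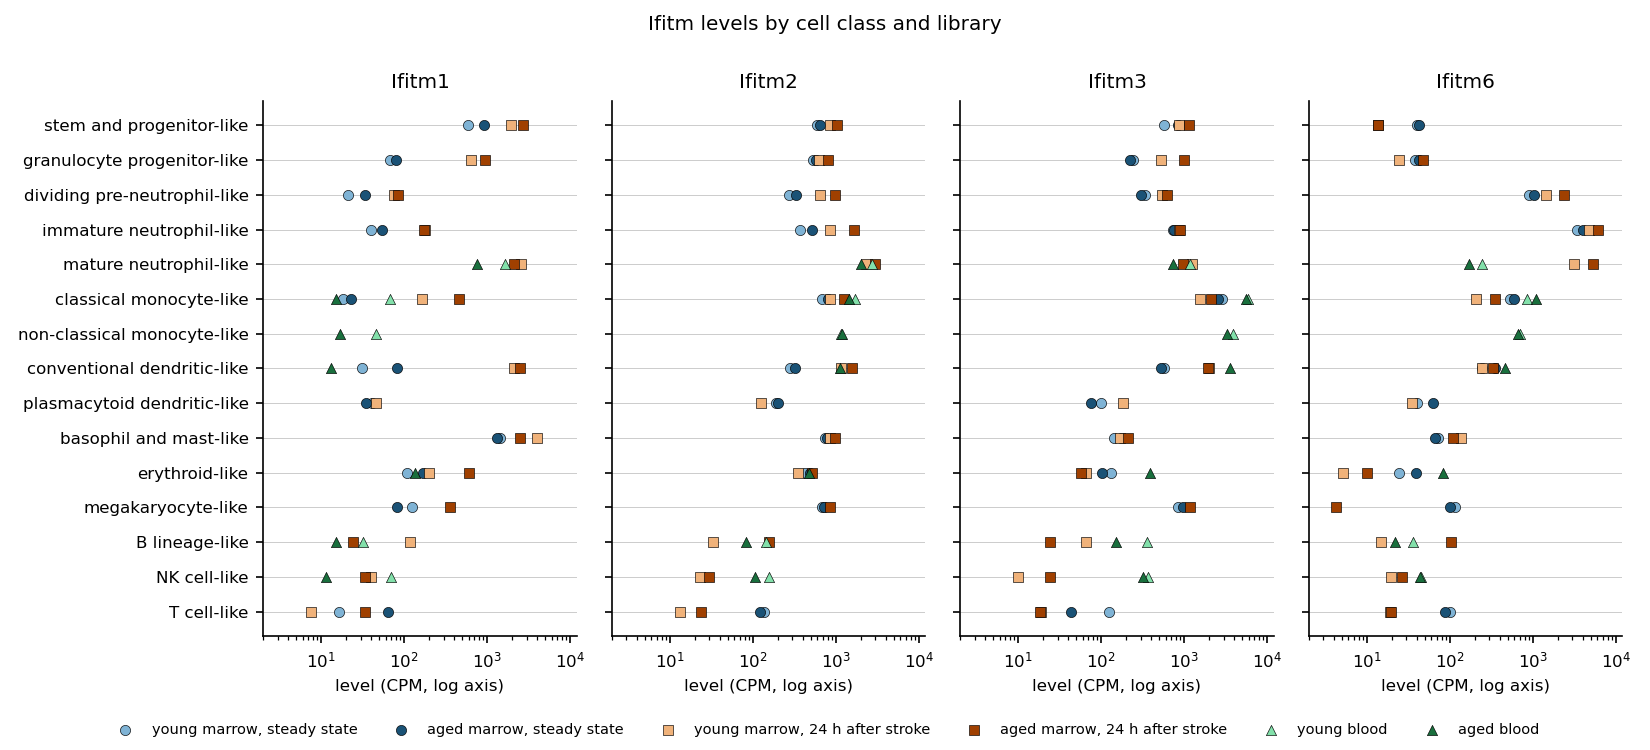
Levels of Ifitm1, Ifitm2, Ifitm3 and Ifitm6 (CPM, log axis) by cell class, with 1 point per library; circles are marrow at steady state, squares marrow after stroke, triangles blood, and dark colours the aged. Ifitm1 is high in stem cells, mature neutrophils and basophils, Ifitm2 in mature neutrophils, Ifitm3 in monocytes and Ifitm6 in immature neutrophils.

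Along neutrophil formation the 4 genes took different courses, although by class all rose from dividing pre-neutrophils to immature neutrophils. The stages were taken from markers, with granulocyte progenitors named by genes such as Elane and Mpo. Among neutrophil clusters, those high in Camp were split by genes of division such as Mki67. The clusters high in both were called dividing pre-neutrophils, and those low in division genes immature neutrophils. Clusters with less Camp and high Cxcr2 were called mature neutrophils. Contexts were clustered separately, so a stage in 1 context matches that in another by its markers only.

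Ifitm6 appeared at the step from progenitor to pre-neutrophil. Its level went from 38.7 to 900 CPM in young and from 42.4 to 1036 CPM in aged steady-state marrow, folds of 23.3 and 24.4. After stroke it went from 24.7 to 1427 CPM in the young and from 47.9 to 2390 CPM in the aged, folds of 57.7 and 49.9. The step to immature neutrophils added a fold of 2.59 to 3.93 in the 4 marrow libraries. From immature to mature cells of the stroke libraries the ratio was 0.653 in the young and 0.870 in the aged. The plateau was thus reached in immature cells, and blood neutrophils were far below all marrow stages from the pre-neutrophil on.

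Ifitm1 traced a U by class. In steady-state marrow it was at 581 (young) and 908 CPM (aged) in stem and progenitor cells, 67.8 and 79.5 CPM in granulocyte progenitors, 20.8 and 33.8 CPM in pre-neutrophils and 39.7 and 54.6 CPM in immature neutrophils. The class with the lowest level was the dividing pre-neutrophil in all 4 marrow libraries. The clusters behind the classes did not keep this order: immature cluster 3 at steady state was at 6.59 (young) and 12.0 CPM (aged), below the pre-neutrophil class, and immature cluster 2 after stroke was at 25.6 and 44.9 CPM, below both pre-neutrophil clusters of those libraries. The higher immature values came from cluster 2 at steady state (75.4 and 91.3 CPM) and cluster 6 after stroke (429 and 390 CPM). The fold from granulocyte progenitor down to pre-neutrophil was 3.25 (young) and 2.35 (aged) at steady state, and after stroke it was 8.40 and 11.2. In the stroke libraries Ifitm1 then went from 180 to 2538 CPM (young) and from 173 to 2123 CPM (aged) between immature and mature cells, folds of 14.1 and 12.3. In blood 72.9% of young and 54.5% of aged mature neutrophils had a UMI of it, or 49.2% and 31.4% after thinning, against 0% and 2.67% of thinned B cells (14.6% and 9.09% before thinning). The median depths were 3974.5 and 4021 UMIs for these neutrophils and 5303 and 5604 for the B cells.

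Mature cells of the stroke marrow were of 2 kinds. Cluster 27 (59 young and 25 aged cells) had 6154 and 8702 CPM of Ifitm1 and 673 and 819 CPM of Ifitm6. Cluster 4 (133 and 122 cells) had 1773 and 1663 CPM of Ifitm1 and 3672 and 5702 CPM of Ifitm6. High Ifitm1 with low Ifitm6 in cluster 27 is the same arrangement as in blood neutrophils.

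Ifitm2 and Ifitm3 moved less along the line. Ifitm2 was lowest in pre-neutrophils at steady state, at 275 (young) and 330 CPM (aged), and in the stroke libraries went from 865 to 2351 CPM and from 1655 to 2969 CPM between immature and mature cells, folds of 2.72 and 1.79. Ifitm3 was at 242 and 221 CPM in granulocyte progenitors, 335 and 305 CPM in pre-neutrophils and 740 and 753 CPM in immature neutrophils of steady-state marrow. Its step from immature to mature cells was the smallest of those that went up, with folds of 1.44 (young) and 1.09 (aged).

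**Figure D2:**
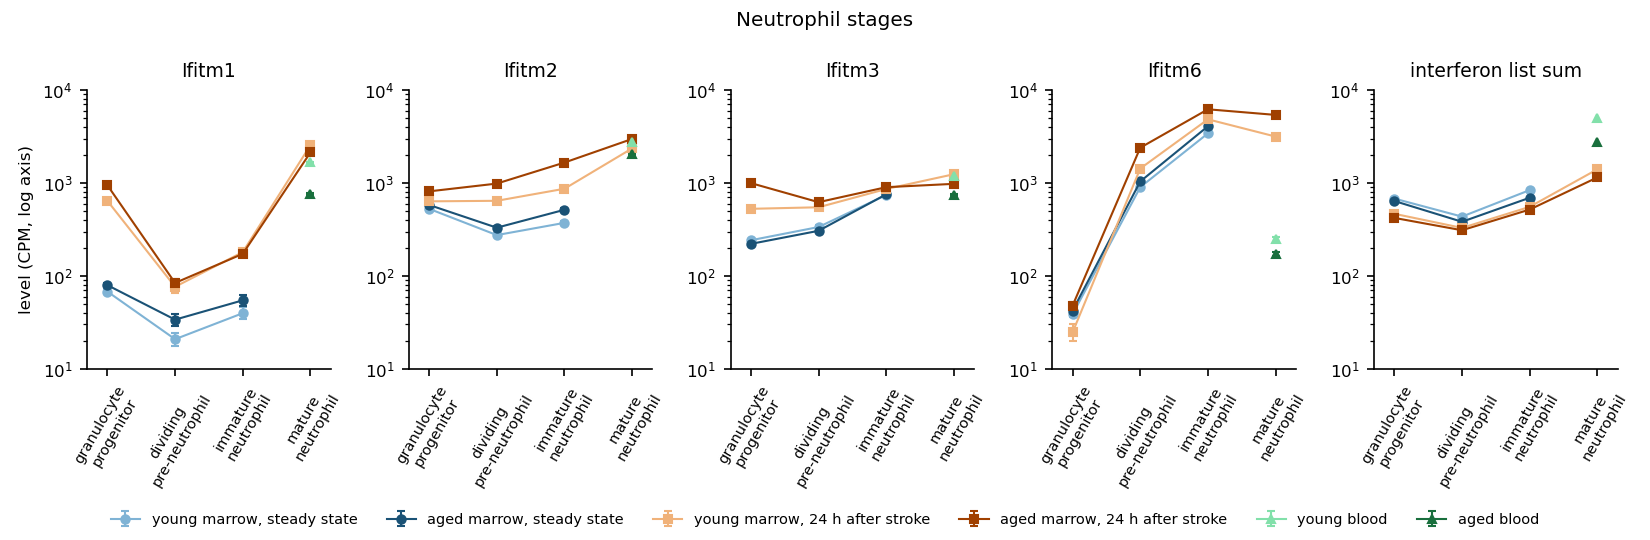
Level of each Ifitm gene and of the summed interferon list (CPM, log axis) at successive stages from granulocyte progenitors to mature neutrophils, with 1 line per marrow library, blood as triangles and bars for the 95% counting interval. Ifitm6 climbs from progenitors to immature neutrophils while the class level of Ifitm1 is lowest in dividing pre-neutrophils, an order that single clusters of the immature class do not keep.

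The comparison of marrow 24 h after stroke with steady-state marrow asked how the family differed between those libraries at each age. Ifitm1 was higher after stroke at both ages in the stem, granulocyte, neutrophil, monocyte, conventional dendritic, basophil and erythroid classes. The T-like cells had too few Ifitm1 UMIs for a direction (4 to 24 per library). The summed interferon genes had ratios below 0 in the same progenitor and neutrophil classes, though not always below the shift of the median gene. Ratios are log2 of stroke over steady-state CPM, and a ratio of 1.5-fold or more among genes with at least 50 UMIs in the pair counts as past the fold.

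Granulocyte progenitors gave the clearest case. Ifitm1 was at 67.8 CPM at steady state and 641 CPM after stroke in the young, a log2 ratio of 3.24 (3.15 to 3.34), and at 79.5 and 943 CPM in the aged, a ratio of 3.57 (3.49 to 3.65). It ranked 33rd of 11035 and 47th of 11244 genes by this ratio. The share of cells with a UMI was 36.7% (young) and 49.5% (aged) at steady state, and after stroke it was 88.7% and 90.6%, or 6.25%, 7.11%, 45.1% and 49.7% after thinning. T-like cells of the stroke libraries, at median depths of 5593 and 4011 UMIs, had a UMI of Ifitm1 in 4.82% and 12.1% of cells, or 0% and 5.81% after thinning. The 10 cells with the most UMIs held 43.9% (young, 71 cells) and 20.4% (aged, 191 cells) of the Ifitm1 count after stroke. Ifitm3 was higher too, at 242 against 526 CPM in the young (log2 1.12, 1.05 to 1.20) and 221 against 995 CPM in the aged (2.17, 2.12 to 2.23). Ifitm2 differed less, with 0.27 in the young and 0.49 in the aged. In this class Elane was at 9126 (young) and 8814 CPM (aged) at steady state and 3303 and 4088 CPM after stroke. Make-up may therefore differ. By cluster Ifitm3 was at 121 to 320.5 CPM (young) and 134 to 274 CPM (aged) at steady state. After stroke it was at 494 to 541 CPM and 967 to 1014 CPM. Ifitm1 was at 31.4 to 101 CPM and 41.3 to 111 CPM, against 385 to 757 CPM and 890 to 979 CPM. The part of make-up in these ratios was not tested. Past the fold were 3 of the 4 genes in the young (Ifitm6, at background, lower) and 2 in the aged, where 49.9% and 50.4% of all genes tested were past it in either direction.

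Stem and progenitor cells showed Ifitm1 at 581 CPM at steady state and 1944 CPM after stroke in the young (log2 1.74, 1.66 to 1.83) and at 908 and 2670 CPM in the aged (1.56, 1.51 to 1.61). Both stroke libraries were above both steady-state libraries. The ratios of Ifitm2 were 0.51 and 0.69, and those of Ifitm3 0.60 and 0.47. In each age 3 of the 4 genes were past the fold, 1 of them Ifitm6 in the lower direction at levels of 13.5 to 42.8 CPM, against 39.7% (young) and 46.9% (aged) of all genes.

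In dividing pre-neutrophils all 4 genes were past the fold in the higher direction at both ages, against 32.1% (young) and 36.6% (aged) of all genes in either direction. Ifitm2 went from 275 to 642 CPM in the young (log2 1.23, 1.13 to 1.32) and from 330 to 983 CPM in the aged (1.58, 1.499 to 1.65). Ifitm6 was 0.67 and 1.21 higher on the log2 scale, Ifitm3 0.71 and 1.02. Ifitm1 had ratios of 1.87 and 1.31 from a steady-state level of 20.8 and 33.8 CPM. At steady state 0.959% and 2.29% of thinned pre-neutrophils had a UMI of Ifitm1, near the 2.42% and 1.77% of plasmacytoid dendritic cells, so its base there is at background. With doublets kept, its ratios were 0.44 in both ages, no longer past the fold.

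In immature neutrophils 2 of the 4 genes were past the fold in the young and 3 in the aged, against 31.9% and 36.7% of all genes. Ifitm2 was at 372 CPM at steady state and 865 CPM after stroke in the young (log2 1.22, 1.13 to 1.31), and at 514 and 1655 CPM in the aged (1.69, 1.62 to 1.76). The stroke libraries were thus both above the steady-state ones. Ifitm1 had ratios of 2.18 and 1.66 (1.28 in the young from cells of at most 5% mitochondrial UMIs), on few cells: the 10 highest cells held 69.0% and 41.3% of its UMIs after stroke. Ifitm6 had ratios of 0.50 and 0.61 and Ifitm3 of 0.22 and 0.26, which turned to -0.14 and -0.08 in cells of at least 1000 UMIs.

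In these 4 classes the median gene was itself lower after stroke, by a log2 value between -0.27 and -0.48. Relative to that shift, with scaling by median-of-ratios size factors, the ratio of Ifitm1 was 3.66 (young) and 4.004 (aged) in granulocyte progenitors and 2.13 and 2.04 in stem and progenitor cells, and no direction of a ratio named here changed.

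In monocytes the members differed by cluster. Ifitm1 was at 18.1 (young) and 22.9 CPM (aged) in classical monocytes at steady state, the background level given above, and at 164 and 455 CPM after stroke, log2 ratios of 3.18 (2.81 to 3.56) and 4.31 (4.01 to 4.64). Ifitm3 was lower after stroke, with ratios of -0.88 and -0.30, as was Ifitm6, with -1.36 and -0.75. The classes were not alike in make-up, since both stroke clusters of this class were dividing, while steady-state marrow held a dividing cluster (13) and a non-dividing one (10). Against cluster 13 alone the aged direction turned: Ifitm3 was at 1738 CPM in it and at 2173 and 2016 CPM in the stroke clusters 14 and 15, and Ifitm6 at 320 against 384 and 333 CPM. In the young Ifitm3 was at 1956 CPM in cluster 13 against 1711 and 1470 CPM, and Ifitm6 at 281 against 279.4 and 159 CPM. In cluster 13 Ifitm1 was at 23.3 and 21.4 CPM, against 163 to 490 CPM in both stroke clusters. Conventional dendritic cells had Ifitm1 at 30.9 and 81.1 CPM at steady state and 2107 and 2466 CPM after stroke. The 10 highest of 32 and 57 dendritic cells held 74.7% and 57.2% of these UMIs. Plasmacytoid dendritic cells, the main producers of type I interferon, were unlike in make-up. The named cells of steady-state marrow were cluster 7 and the dividing cluster 24, and the cells after stroke were cluster 28, with Mki67 at 42.1 (young) and 54.7 CPM (aged) against 1757 and 1779 CPM in cluster 24. Ifitm1 was at 41.3 CPM at steady state and 45.6 CPM after stroke in the young, and at 35.1 and 258 CPM in the aged, the last from only 27 cells. The summed interferon list was at 2751 CPM and 5339 CPM in the young. A cluster of steady-state marrow with plasmacytoid markers and no Mki67 UMI (34; 28 young and 14 aged cells) had stayed unnamed and was at 7648 and 6731 CPM, so no direction is read for these cells.

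**Figure D3:**
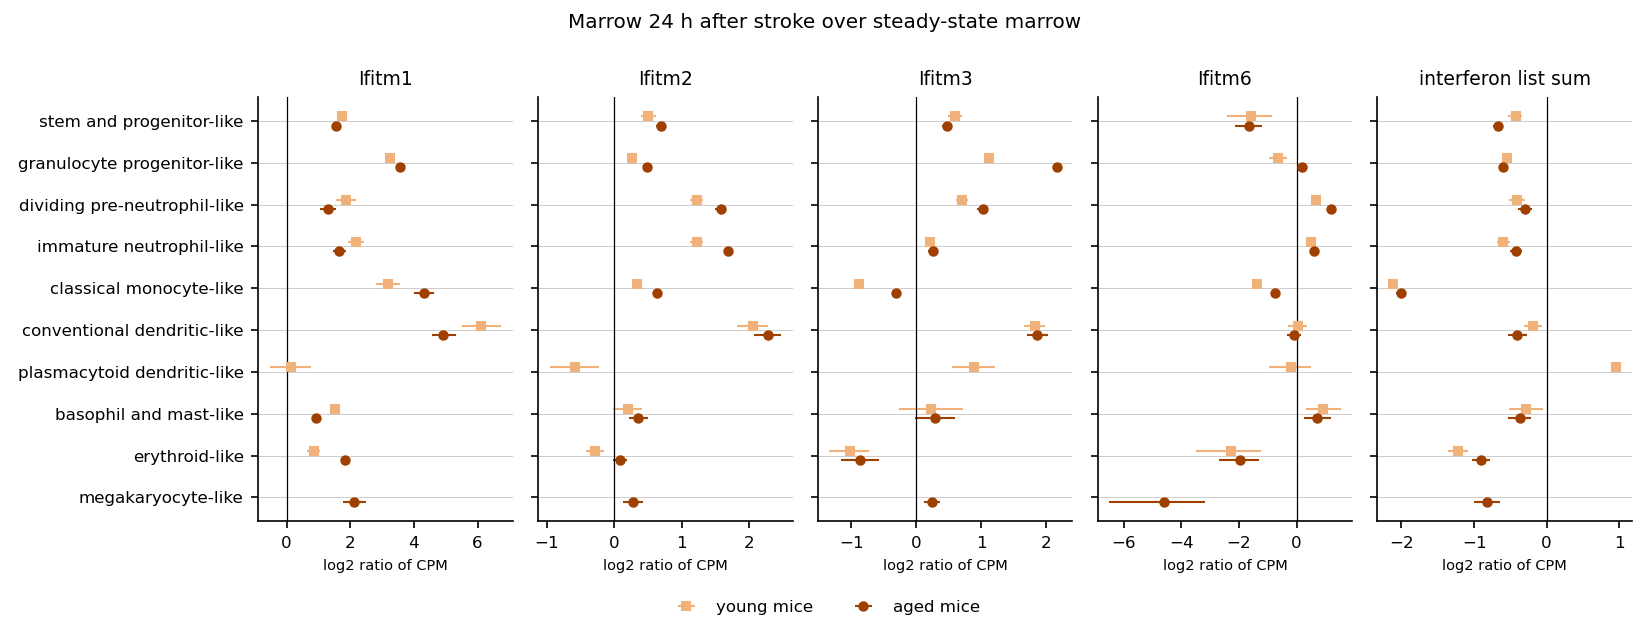
Log2 ratio of stroke over steady-state marrow for the 4 Ifitm genes by class and age, with 95% counting intervals, beside the summed interferon list. Ifitm1 lies above 0 in each class drawn, while the interferon sum lies below 0 in each except plasmacytoid dendritic cells, whose clusters differ between the contexts.

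The interferon list did not accompany Ifitm1. In granulocyte progenitors its summed level was 678 CPM at steady state and 465 CPM after stroke in the young, and 639 and 420 CPM in the aged. Of the 27 listed genes with at least 50 UMIs 21 were lower past the fold in the young and none higher, with a median log2 ratio of -1.08 against -0.42 for all genes. In the aged 20 of 26 were lower and 1, Oas1a (a sensor of double-stranded RNA; 1.69), was higher, with a median of -1.10 against -0.44. Bst2 (tetherin, which holds budding virions at the cell surface) had ratios of 0.02 and -0.07. The extremes in the young were Ifi35 (0.09) and Zbp1, which had 1 UMI after stroke, and the lowest in the aged was Gbp2 (-2.58, on 7 UMIs). The list's sums and Ifitm1 thus lay on opposite sides of 0 in this class at both ages.

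In the other stages the list's median stood closer to that of all genes. In stem and progenitor cells 11 of 27 listed genes were lower past the fold in the young and none higher. In the aged 24 of 34 were lower and 1 higher. Of all genes 39.7% (young) and 46.9% (aged) were past it in either direction. The list's medians were -0.47 and -0.88 against -0.39 and -0.48 for all genes. The extremes were Ifi35 (0.06) and Ifi44 (-1.73) in the young, and Oas1a (1.90) and Oas3 (-2.36) in the aged. In pre-neutrophils 7 of 18 and 6 of 15 were lower, and 1 and 2 higher. Of all genes 32.1% and 36.6% were past the fold in either direction. The list's medians were -0.39 and -0.50 against -0.27 and -0.33 for all genes. The list's sum was level with that shift in young stem and progenitor cells (-0.43 against -0.39) and in aged pre-neutrophils (-0.30 against -0.33). Higher in pre-neutrophils were 1 and 2 genes, led by Slfn1 (0.64 and 0.65), with Bst2 lowest in the young (-1.54) and Ifit2 in the aged (-1.51). In immature neutrophils 11 of 21 and 10 of 18 were lower and none higher (31.9% and 36.7% of all genes in either direction). The list's medians were -0.66 and -0.73 against -0.31 and -0.33 for all genes. Their extremes were Dhx58 (0.26) and Bst2 (-1.85) in the young, and Trim30a (0.28) and Stat2 (-1.36) in the aged. In classical monocytes the summed level was 2548 CPM at steady state and 589 CPM after stroke in the young, and 1926 and 480 CPM in the aged. The steady-state sum came largely from the non-dividing cluster 10 (4757 and 3426 CPM), and the dividing cluster 13 was at 1460 and 1032 CPM, against 731 and 489 CPM in the young and 547 and 429 CPM in the aged of the stroke clusters. All these comparisons use the same steady-state libraries, and the counting difference named above applies to each.

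Aged and young libraries were compared within each context, which asks how the family differed with age. In marrow neutrophil precursors Ifitm2 was higher in the aged in both marrow contexts. This was not particular to these precursors. At steady state and after stroke the Ifitm2 ratios were 0.245 and 0.53 in classical monocytes and 0.21 and 0.57 in erythroid cells. In stem and progenitor cells they were 0.105 and 0.29, and in conventional dendritic cells 0.19 and 0.41. T-like cells went the other way at steady state (-0.16, on 31 and 42 UMIs). In blood neutrophils all 4 genes were lower in the aged. Ratios are log2 of aged over young CPM. Since age values helped to choose these genes, the counts below are read as a description only.

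Ifitm2 in immature neutrophils was at 372 CPM in the young and 514 CPM in the aged at steady state (log2 0.47, 0.37 to 0.56), and at 865 and 1655 CPM after stroke (0.94, 0.87 to 1.003). The class was made of 2 clusters in each context, and the aged were higher within each: 394 against 568 CPM and 351 against 451 CPM at steady state, 735 against 1414 CPM and 1074 against 2068 CPM after stroke. In pre-neutrophils Ifitm2 had ratios of 0.26 and 0.62, and in granulocyte progenitors of 0.14 and 0.36. Without its 10 highest cells per library the immature ratio after stroke was 1.03.

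Ifitm6 went the same way, with ratios of 0.26 at steady state and 0.36 after stroke in immature neutrophils, 0.20 and 0.74 in pre-neutrophils, and 0.77 in the mature cells of the stroke marrow. Part of the last value goes with make-up, since Ifitm6-poor cluster 27 held 59 of 192 young and 25 of 147 aged cells; within cluster 4 the ratio was 0.64. Ifitm3 was nearly level in immature neutrophils, at 740 and 753 CPM at steady state and 859 and 899 CPM after stroke. Ifitm1 in pre-neutrophils had a ratio of 0.70 at steady state on levels at background (1.31 at clustering resolution 0.5), and 0.14 (-0.11 to 0.39) after stroke.

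Counts past the fold were few in the neutrophil classes. At steady state none of the 4 genes was past 1.5-fold in immature neutrophils (5.46% of all genes tested were) and 1 in pre-neutrophils, Ifitm1 (4.22%). After stroke 1 was past it in immature neutrophils, Ifitm2 (9.66%), and 2 in pre-neutrophils, Ifitm2 and Ifitm6 (7.83%). In mature neutrophils 1 was past it, Ifitm6 (15.7%). All of these were higher in the aged. Granulocyte progenitors after stroke also had values past the fold. The log2 ratios of all genes there had a 5th percentile of -0.526 and a 95th percentile of 0.553. Ifitm3 was at 526 CPM in the young and 995 CPM in the aged (log2 0.92, 0.85 to 0.99), ranked 128th of 9118 genes. Ifitm6 was at 24.7 and 47.9 CPM there (0.95, 0.63 to 1.29), and had been read as background at steady state. The steady-state ratio of Ifitm3 in this class was -0.13.

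The interferon list did not follow Ifitm2 in immature neutrophils. At steady state 8 of 24 listed genes were lower in the aged past the fold and none higher. Their median was -0.26 (-0.03 for all genes), with extremes of 0.47 (Stat2) and -1.53 (Oasl2). After stroke 3 of 15 were lower and 1 higher, with a median of -0.17 (-0.04 for all genes). The extremes were 0.61 (Trim30a, a regulator of inflammatory signalling) and -1.02 (Ifi27l2a, a small mitochondrial protein). Pre-neutrophils differed by context. At steady state 5 of 21 were lower and none higher (4.22% of all genes past the fold), with a median of -0.11 against 0.01 for all genes. After stroke 2 of 12 were higher and 1 lower (7.83% of all genes), with a median of 0.075 against -0.045.

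In stem and progenitor cells at steady state Ifitm1 was at 581 CPM in the young and 908 CPM in the aged (log2 0.64, 0.57 to 0.72) and Ifitm3 at 576 and 833 CPM (0.53, 0.46 to 0.61). One of the 4 genes was past the fold, against 9.31% of all genes. The class held 2 clusters in unequal shares. Cluster 19, with 31 young and 315 aged cells, had 1800 (young) and 1616 CPM (aged) of Ifitm1 and 1391 and 1486 CPM of Ifitm3. Cluster 0, with 610 and 401 cells, had 536 and 538 CPM of Ifitm1 and 546 and 492 CPM of Ifitm3. The age ratio of Ifitm1 in the class thus came with a larger share of cluster 19, and within cluster 0 the levels were alike while within cluster 19 the aged were lower. For Ifitm3 the aged were higher within cluster 19 and lower within cluster 0.

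Mature blood neutrophils were lower in the aged for all 4 genes. Ifitm1 was at 1661 CPM in the young and 762 CPM in the aged (log2 -1.13, -1.16 to -1.09), Ifitm3 at 1177 and 738 CPM (-0.67, -0.72 to -0.63), Ifitm2 at 2777 and 2030 CPM (-0.45, -0.48 to -0.42), and Ifitm6 at 246 and 173 CPM (-0.51, -0.61 to -0.42). Ifitm1 and Ifitm3 were past the fold, against 13.9% of all genes. The cells lay in different clusters by age, with 980 of the 1494 young but 126 of the 3235 aged in cluster 1, and 163 young but 1676 aged in cluster 0. Ifitm1 was lower in the aged in each of the 5 clusters of this class, for example 1533 against 829 CPM in cluster 0 and 1967 against 670 CPM in cluster 8. Ifitm3 was closer within clusters, with log2 ratios of -0.49 in cluster 1, -0.42 in cluster 2 and -0.30 in cluster 4, all short of the fold, and -0.61 in cluster 0, while cluster 8, with only 16 young cells, was at 1205 (young) and 660 CPM (aged). Here the interferon list did go the same way, with 31 of 38 genes lower in the aged and 1 higher. Its median was -0.86 and its summed level 5037 CPM in the young and 2786 CPM in the aged. Part of this gap goes with the interferon-rich cluster 4, which held 274 young and 322 aged cells. Within clusters the sum was 2328 CPM in the young against 1726 CPM in the aged in cluster 0, 3370 against 2451 in cluster 1, 3401 against 2428 in cluster 2, 13020 against 9861 in cluster 4 and 3261 against 2053 in cluster 8. Among its genes Isg15 went from 288 CPM in the young to 132 CPM in the aged, Ifi27l2a from 999 to 484 CPM, Irf7 from 123 to 65.2 CPM, Oasl2 from 298 to 110 CPM, and Bst2 from 12.0 to 11.1 CPM. The extremes were Ifit2 (0.71) and Oas2 (-1.91). In the mature cells of stroke marrow the 13 listed genes with enough UMIs had a median of -0.26, with Ifi27l2a lowest (-1.49).

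**Figure D4:**
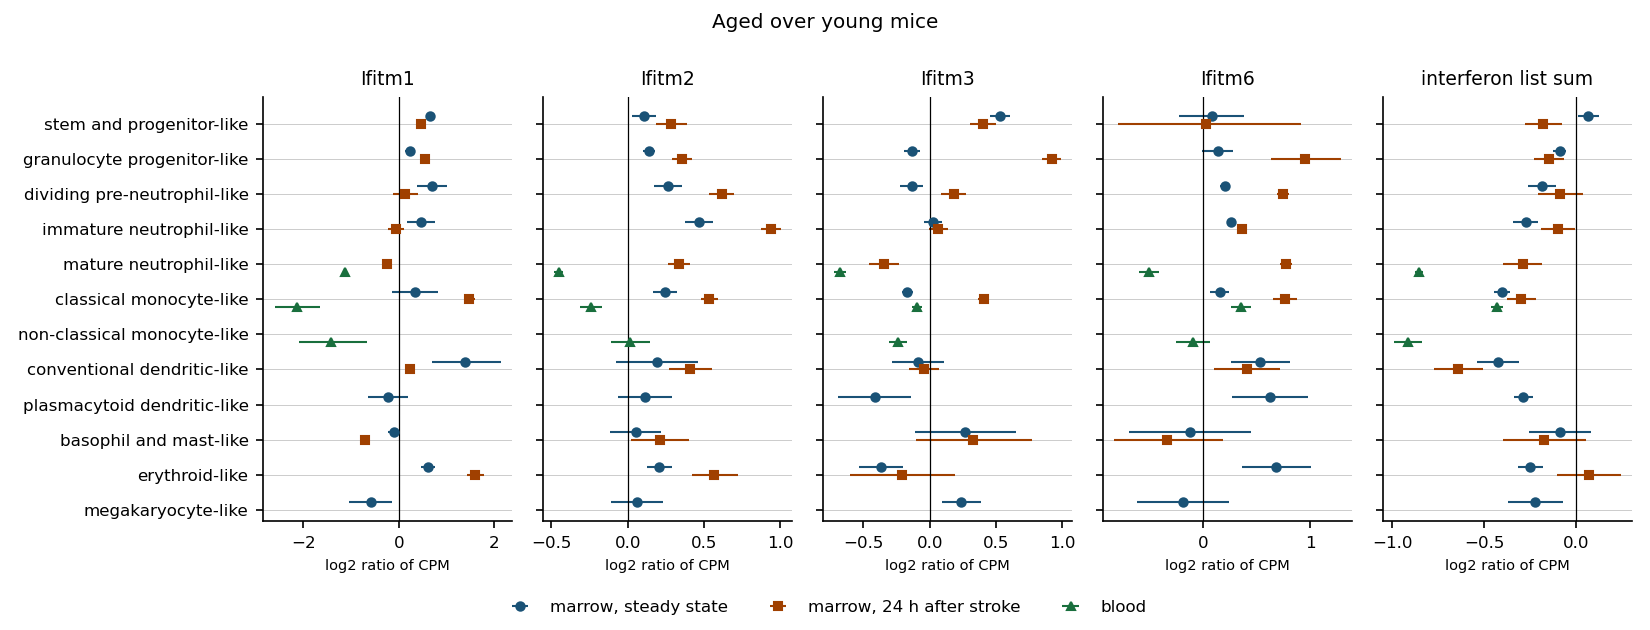
Log2 ratio of aged over young for the 4 Ifitm genes by class and context, with 95% counting intervals, beside the summed interferon list. Ifitm2 lies above 0 in the marrow neutrophil stages and in the other marrow classes drawn, and all 4 genes lie below 0 in blood neutrophils.

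Blood neutrophils held 1 cluster rich in interferon genes, cluster 4, with 274 of 1494 young and 322 of 3235 aged cells. The interferon genes took part in forming it, so their own difference is a description, whereas the Ifitm genes had been left out of the clustering. The summed interferon level was 13020 CPM inside and 3244 CPM outside the cluster in the young (4.01-fold), and 9861 and 1990 CPM in the aged (4.95-fold). Inside it, log2 differences from the other neutrophils were 3.11 (young) and 3.62 (aged) for Isg15, 4.83 and 5.49 for Ifit1, 6.91 and 7.04 for Ifit3, 3.57 and 4.15 for Rsad2, and 3.61 and 4.43 for Usp18, which removes Isg15 from proteins. Oasl2 (1.79 and 2.29), Irf7 (2.38 and 2.86), Ifi27l2a (1.67 and 1.87) and Bst2 (2.12 and 2.44) were higher by less.

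Of the 4 Ifitm genes Ifitm3 differed most in that cluster. It was at 2163 CPM inside and 956 CPM outside in the young (log2 1.18, 1.11 to 1.25) and at 1755 and 624 CPM in the aged (1.49, 1.43 to 1.56), folds of 2.26 and 2.81. Ifitm1 differed by 0.03 in the young and -0.25 in the aged, and Ifitm2 by 0.03 and -0.07. Ifitm6 differed by 0.41 and 0.44, values that turned to -0.09 or -0.13 in the young under other clusterings. Under the same clusterings, at resolution 0.5 or without the interferon genes, the ratio of Ifitm3 was 0.46 and 0.41 in the young and 1.39 and 1.35 in the aged. Of the genes whose windows hold the motif shown above, Ifitm3 was thus higher in the cluster and Ifitm2 was level. Compared with the interferon genes named, the ratio of Ifitm3 was below each of them at both ages. The age difference of Ifitm1 was present inside the cluster as well as outside: 1692 (young) and 652 CPM (aged) inside, 1654 and 774 CPM outside.

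**Figure D5:**
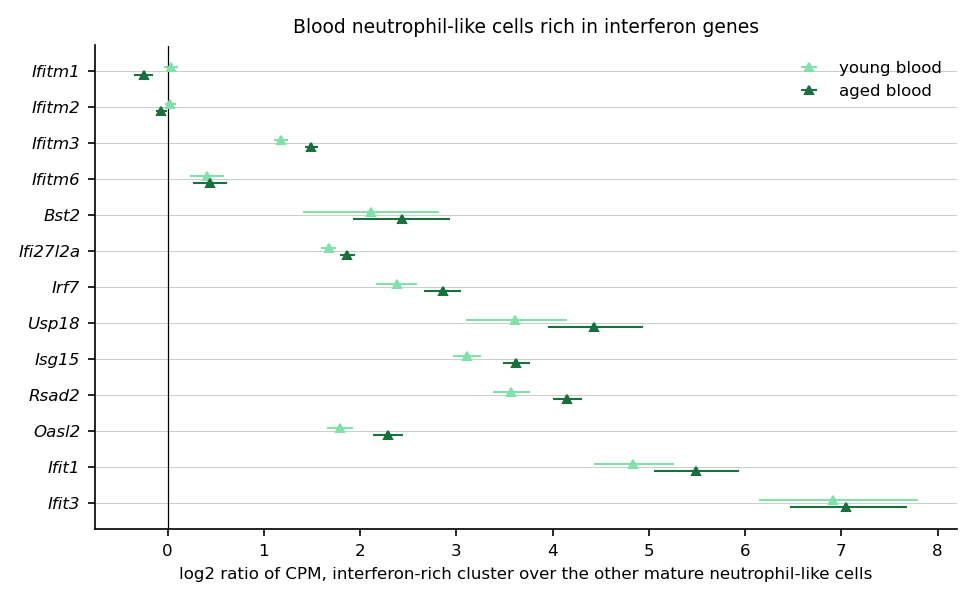
Log2 ratio of the interferon-rich cluster of blood neutrophils over the other blood neutrophils for the 4 Ifitm genes and the interferon genes named, in young and aged libraries, with 95% counting intervals. Ifitm3 lies at 1.18 and 1.49, below the interferon genes, and Ifitm1 and Ifitm2 lie near 0.

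Across all 60 class-by-library sums the genes most like each member were named by Pearson correlation of log2(CPM + 10) among 5999 genes of mean CPM of at least 20. The sums share libraries and depth, so these values are a description. Ifitm6 was closest to Cd177 (0.892), a surface protein of neutrophils, Mcemp1 (0.892), Degs1 (0.888), G6pdx (0.879) and Prdx5 (0.873). Ifitm3 was closest to Adam15 (0.814), Rab32 (0.807), Ralb (0.797), Ltbr (0.788) and Ifitm2 (0.781). Ifitm2 was closest to Ogfrl1 (0.784), Ifitm3 (0.781), Eif4ebp1 (0.752), Alox5ap (0.744), which serves leukotriene synthesis, and Znhit1 (0.743). Ifitm1 was closest to Ier3 (0.778), and its other genes named here had lower values, with Cpne2 (0.617), Dynlt1f (0.602) and Flot1 (0.574). Between members the correlation was 0.569 for Ifitm1 with Ifitm2, 0.176 for Ifitm1 with Ifitm3 and -0.056 for Ifitm1 with Ifitm6. Ifitm6 had 0.510 with Ifitm2 and 0.559 with Ifitm3. None of these most similar genes belongs to the interferon list. Listed genes with a mean below 20 CPM, such as Ifit1, Ifit3 and Usp18, could not be named by this rule. With the list's sum the correlations were -0.244 for Ifitm1, 0.034 for Ifitm2, 0.314 for Ifitm3 and 0.076 for Ifitm6, and sharing of sequence between Ifitm2 and Ifitm3 bears on the first of those pairs in a way that was not tested.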

How the data were processed

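The values are raw UMI counts, deposited by the authors as a gene-by-cell table in which cell names carry the library. Per the submitters' processing notes, featureCounts 1.6.4, STAR 2.5.3a, Cell Ranger 3.0.2, Subread and UMI-tools were used, in roles not stated, with build GRCm38 (mm10). The treatment of reads that match more than 1 gene is not stated either. Cells under 500 UMIs, under 200 genes or above 10% mitochondrial UMIs were dropped. Doublets were removed above 0.25 of a Scrublet-type score (simulation ratio 2, prior 0.06). Each context was clustered without the Ifitm genes (2000 variable genes, 30 principal components, 15 neighbours, Leiden resolution 1, seed 1). Clusters were named from marker lists, with naming thresholds set after cluster tables had been seen. Classes need 30 cells in a library.

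UMIs were summed per class and library. Levels carry exact Poisson intervals and ratios exact conditional binomial intervals at 95%, for counting error only, as UMIs of 1 library do not measure animals. The interval code was tested on simulated data. No test was made, because each group has 1 library. Members and lists were chosen with earlier results of these data known. Named genes were the members, a set of interferon genes, the list's extremes in each described comparison and the 5 genes most like each member, of which some are not reported here. Alternatives covered filters, scaling, resolution, fold and top cells. The code used scipy 1.17.1, numpy 2.4.6, leidenalg 0.10.2, python-igraph 0.11.9, scikit-learn 1.9.0, pandas 2.3.3 and matplotlib 3.10.9 in Python 3.11.15.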

Additional observations from a re-analysis of the deposited data

Results flagged for a closer look

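The age ratio of Ifitm1 in classical monocytes had opposite signs in 2 contexts. The log2 ratio of aged over young was 1.48 (1.36 to 1.59) in marrow after stroke, at 164 CPM in the young and 455 CPM in the aged, and -2.13 (-2.60 to -1.65) in blood, at 66.7 and 15.3 CPM. The difference between these contexts was not tested, since each has 1 library per age. The blood values rest on 85 and 70 UMIs, of which the 10 highest cells held 71.8% and 38.6%. After thinning, 4.21% and 0.826% of the blood monocytes had a UMI of Ifitm1, against 4.63% and 1.06% of NK cells of the same libraries, so the blood values are at background. In blood neutrophils Ifitm1 was lower in the aged too, and the part of RNA from neutrophils in the monocyte values was not tested.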

How the results depend on the processing

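Each value was recomputed under the alternatives. Of the values that answer a comparison, 31 moved by less than the counting interval and 23 by more, and no direction was reversed among them; of the others 238 and 134. The cause of these moves was not tested. With median-of-ratios scaling the stroke ratio of Ifitm1 was 2.13 (young) and 2.04 (aged) in stem and progenitor cells and 3.66 and 4.004 in granulocyte progenitors. With each cell weighted equally it was 1.44 in aged stem and progenitor cells. With doublets kept it was 1.62 there, and 3.46 and 3.70 in granulocyte progenitors. From cells of at least 1000 UMIs it was 3.56 and 3.71 in granulocyte progenitors. The age ratio of Ifitm2 in immature neutrophils after stroke was 0.78 from cells of at least 1000 UMIs, 1.03 without the 10 top cells and 0.67 at resolution 0.5, and at steady state it was 0.36 within cluster 3 (added after seeing the data). The number of interferon genes lower in the aged was 8 of 24 and 3 of 15 in immature neutrophils at steady state and after stroke. In blood neutrophils it was 31 of 38. At 2-fold these counts were 4, 1 and 16. With at least 20 UMIs in the pair, which lets in more genes of low count, the first 2 were 14 and 6. The shares of all genes at these alternative settings are not reported here, so these counts are not read against all genes. The ratio of Ifitm3 in the interferon-rich cluster was 0.46 (young) and 1.39 (aged) at resolution 0.5, and 0.41 and 1.35 when clustered without the interferon list. Among other values close to 0, the age ratio of Ifitm1 in immature neutrophils after stroke went from -0.06 to 0.81 without the 10 top cells, and the stroke ratio of Ifitm3 there from 0.22 and 0.26 to -0.14 and -0.08 in cells of at least 1000 UMIs. Depth limits the low classes: levels near those of lymphoid cells cannot be told apart from free RNA. No paired analysis was possible because each group has 1 library.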
